A study of Homo sapiens with 20 samples.

Results

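The transcriptome of A549 cells after 6 h with TGF-β is set here directly against that after 6 h with extracellular ATP (eATP), without passing through the untreated cells. A549 is an established human lung adenocarcinoma line with an epithelial shape that is widely used to follow the epithelial to mesenchymal transition (EMT), the loss of epithelial traits and gain of mesenchymal ones that precedes invasion. The comparison holds 4 libraries of cells given 10 ng/ml TGF-β for 6 h (TGF6) and 4 libraries of cells given 0.5 mM ATP for 6 h (ATP6). A gene was a member if its FPKM (mapped fragments scaled to gene length and to library size) was at least 0.1 in at least 4 of these 8 libraries. That rule kept 17544 of the 58825 genes in the table, of which 12929 are protein coding in the GENCODE 29 annotation. The rule used levels only and no difference between the inducers. Of the members, 14599 reached 0.1 FPKM in all 8 libraries and 824 in exactly 4, among these 106 in the 4 TGF6 libraries alone and 56 in the 4 ATP6 libraries alone, which had to differ and are described here without a test, and 816 genes just outside reached it in exactly 3. The other 12 libraries of the series, 4 each of cells given TGF-β for 2 h (TGF2), cells given eATP for 2 h (ATP2) and untreated cells (Cont, with no collection time stated), serve here only as further reference points. All 20 libraries are polyadenylated RNA of the same line, and whether the 4 in a group were grown as separate cultures is stated nowhere, so a p-value here reflects only how much those 4 vary, which may be technical variation.

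TGF-β binds a pair of serine/threonine kinase receptors that phosphorylate SMAD2 and SMAD3, which enter the nucleus with SMAD4 and switch on target genes, among them their own inhibitor SMAD7. eATP acts on cells through ligand-gated P2X channels and G protein-coupled P2Y receptors, which raise intracellular calcium and feed into protein kinase C and MAP kinases, and it is broken down at the cell surface to adenosine, which has receptors of its own. Both have been used as inducers of EMT in lung cancer cells, and the question here is what still separates them at the later time point.

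Depth differed between the inducers. The TGF6 libraries held 56187614 to 71464725 counts and the ATP6 libraries 72156747 to 75008012, ranges that do not overlap. Mitochondrially encoded genes took 2.60% to 3.23% of the counts in TGF6 and 2.75% to 4.21% in ATP6. The keratins KRT8 and KRT18 of simple epithelia lay at 360.4 to 433 and 712 to 785 FPKM in TGF6 and at 355 to 450.4 and 674 to 762 FPKM in ATP6. The alveolar markers NKX2-1, SFTPA1, SFTPB and SFTPC stayed under 0.1 FPKM in all 8 libraries, whereas ABCA3, a lipid transporter of alveolar type II cells, lay at 2.22 to 3.86 FPKM in TGF6 and 3.28 to 4.02 FPKM in ATP6. LAMP3 lay at 0.264 to 0.379 FPKM in TGF6 and 0.310 to 0.463 FPKM in ATP6, and SFTPD and NAPSA were under 0.3 FPKM in every library. PTPRC, CD3E and MS4A1 of immune cells and PECAM1, VWF, KDR, TEK and CLDN5 of endothelial cells were also under 0.1 FPKM in all 8 libraries. Of the remaining markers of those lists, CD68 was 2.23, 1.79, 1.86 and 3.28 FPKM in TGF6 and 3.51, 2.99, 5.21 and 6.22 FPKM in ATP6 (adjusted p = 0.049), and CDH5 averaged 0.0671 ± 0.0460 FPKM in TGF6 and 0.310 ± 0.0521 FPKM in ATP6 (SD, n = 4 each; adjusted p = 0.0098). Of the 4 immune markers tested, CD68 was lower and 3 were not called, with log2(FC) values between -0.92 and 0.31. CDH5 was the only 1 of 6 endothelial markers tested. The part of these immune and endothelial markers in the results was not tested. In bulk RNA such as this, fewer cells of a type and less RNA per cell cannot be told apart. The call on CD68 was lost when TGF6 replicate 1, 2 or 3 or ATP6 replicate 1, 3 or 4 was omitted (log2(FC) between -1.02 and -0.72, adjusted p between 0.057 and 0.12).

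Every gene was tested with edgeR's quasi-likelihood method on the deposited counts, and it was called where the Benjamini-Hochberg adjusted p over the 17544 genes was under 0.05. With TGF-β, 1820 genes were higher and 1792 were lower than with eATP, 20.6% of the genes tested in either direction, 10.4% higher and 10.2% lower. The median log2(FC) over all genes was 0.01. Of these calls, 85 of the higher and 44 of the lower genes had passed the level rule through 1 group alone, and among the other 17382 members 1735 were higher (9.98%) and 1748 lower (10.1%). Large differences leaned towards TGF-β, with 211 genes called with a log2(FC) of at least 2 against 102 genes at -2 or below, of which 68 and 26 had passed the rule through 1 group alone. In 1684 of the genes called higher and 1732 of those called lower, the 4 FPKM values of TGF6 did not overlap the 4 of ATP6. Over all 17544 genes, such a gap was seen upward in 11.2% and downward in 14.9%. When the counts of all 8 libraries were thinned at random to 1 depth, a check added after the data were seen, 1821 genes were higher and 1739 lower. Across 17508 genes with a known transcript length, log2(FC) and length had a Pearson r of -0.04 and a Spearman rho of -0.11, a description across genes that are not independent of each other.

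**Figure D1:**
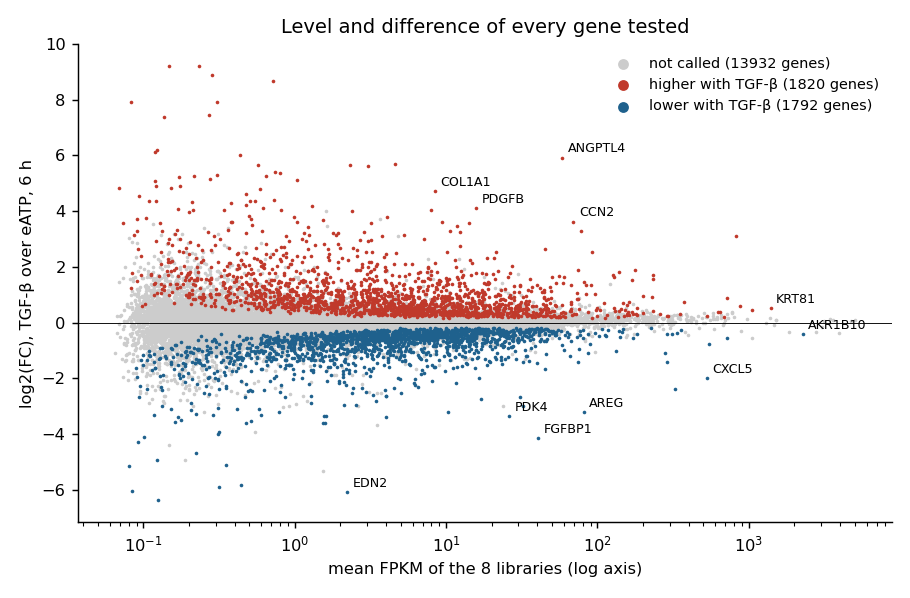
Mean FPKM of the 8 libraries at 6 h (log axis) against the log2(FC) of TGF-β over eATP for each of the 17544 genes tested, with the 1820 genes called higher in red, the 1792 called lower in blue and the rest in gray. ANGPTL4 and CCN2 stand out as genes with both a high level and a large rise, and CXCL5 and AREG on the falling side; for genes with no count in one of the groups the plotted value depends on the fit and is not a bound.

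Long noncoding RNA had fewer calls than the genes as a whole, and more of them higher than lower. Of 816 lincRNA genes tested, 73 were higher and 20 lower, and of 1007 antisense genes 62 were higher and 28 lower. The shares called higher, 8.95% and 6.16%, were below the 10.4% over all genes, and those called lower, 2.45% and 2.78%, were further below its 10.2%. Protein-coding genes were split evenly, with 1615 higher and 1677 lower of 12929. These are counts of calls per class, and no test of the split was run. The classes were not matched for level, and the part of level in these shares was not tested.

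Promoter sequences of 4 genes whose transcripts differed strongly are shown here because each holds a motif of a factor that lies downstream of TGF-β, cAMP or cell tension signaling. Each run is 300 bases of RefSeq promoter sequence (GRCh38.p14), from 250 bases before the start site to the 50th base of the gene, 5′ to 3′ on the gene's strand. In all, 5 motifs were searched on both strands: AGCCAGACA and GTCTAGAC (SMAD elements), TGANTCA (AP-1), TGACGTCA (the cAMP response element) and GGAATG (TEAD), none of which overlapped another in these 4 runs. Capitals mark the matches on either strand. CCN2 and IL11 were far higher with TGF-β, and AREG and EREG, neighbors on chromosome 4, were far lower, EREG having been chosen after its values were seen.
CCN2, chr6:131951323-131951622, minus strand: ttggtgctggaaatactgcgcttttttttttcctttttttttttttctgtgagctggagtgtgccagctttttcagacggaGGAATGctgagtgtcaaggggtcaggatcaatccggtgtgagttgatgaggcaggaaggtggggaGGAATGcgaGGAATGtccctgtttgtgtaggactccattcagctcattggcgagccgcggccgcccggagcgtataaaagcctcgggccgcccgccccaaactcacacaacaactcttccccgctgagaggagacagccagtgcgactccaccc
IL11, chr19:55370414-55370713, minus strand: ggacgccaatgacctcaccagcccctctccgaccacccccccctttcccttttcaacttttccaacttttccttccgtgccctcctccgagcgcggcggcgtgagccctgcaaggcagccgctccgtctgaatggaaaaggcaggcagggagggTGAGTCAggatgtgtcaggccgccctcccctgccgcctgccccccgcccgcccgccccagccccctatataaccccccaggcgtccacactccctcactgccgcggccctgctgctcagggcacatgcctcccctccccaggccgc
AREG, chr4:74444886-74445185, plus strand: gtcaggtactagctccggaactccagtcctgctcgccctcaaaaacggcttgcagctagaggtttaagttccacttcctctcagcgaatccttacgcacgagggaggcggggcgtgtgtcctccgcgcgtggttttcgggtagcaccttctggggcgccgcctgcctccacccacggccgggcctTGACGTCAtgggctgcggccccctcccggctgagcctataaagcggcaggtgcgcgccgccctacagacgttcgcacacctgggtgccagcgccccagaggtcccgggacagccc
EREG, chr4:74364895-74365194, plus strand: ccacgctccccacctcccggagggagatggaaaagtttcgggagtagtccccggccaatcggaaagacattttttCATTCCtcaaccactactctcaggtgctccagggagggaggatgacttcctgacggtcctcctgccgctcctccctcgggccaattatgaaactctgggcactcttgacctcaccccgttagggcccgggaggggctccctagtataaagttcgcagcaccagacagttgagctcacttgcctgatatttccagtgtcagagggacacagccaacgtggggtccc
CCN2 held 3 GGAATG motifs, IL11 held 1 TGANTCA motif in the form TGAGTCA, AREG held 1 TGACGTCA motif, and EREG held 1 TEAD motif read on the other strand, as CATTCC. Windows were matched by symbol for 11239 of the 17544 genes. Over all 35116 windows of the table, 14% held GGAATG, 7.71% TGANTCA and 1.85% TGACGTCA. Among windows of genes called higher the shares were 11.2%, 6.75% and 2.51%, and among those of genes called lower 13.2%, 6.09% and 2.49%. Genes tested but not called had 11.2%, 5.17% and 2.90%. AGCCAGACA and GTCTAGAC were found in under 1% of windows in each class. None of these shares is a test, and a match is a run of letters, not a site shown to be bound.

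The largest rises with TGF-β were mostly in genes with little transcript under eATP. Among genes called with no overlap and at least 1 FPKM in the higher group, the 12 with the largest positive log2(FC) were AC034223.2, ANGPTL4, LCE3D, ODAPH, R3HDML, FOXS1, CHRNA9, KRT17, YPEL2, COL1A1, TSPAN2 and DUSP26. ANGPTL4 (ENSG00000167772, GRCh38 chr19:8363289-8374373), a secreted inhibitor of lipoprotein lipase and a SMAD target, was 122, 115, 125 and 99.8 FPKM in TGF6 and 2.16, 1.85, 2.42 and 1.46 FPKM in ATP6. The lowest TGF6 library was far above the highest ATP6 library, with a log2(FC) of 5.92 ± 0.19 (SE) and an adjusted p of 4.0e-07. COL1A1 (ENSG00000108821, GRCh38 chr17:50183289-50201632), the alpha chain that makes up most of type I collagen, was 16.3, 14.7, 16.4 and 17.8 FPKM in TGF6 and 0.566, 0.662, 0.700 and 0.599 FPKM in ATP6. Its log2(FC) was 4.72 ± 0.10 with an adjusted p of 7.2e-08, and the ATP6 values were below the untreated mean of 1.03 ± 0.142 FPKM (SD, n = 4).

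Others of these genes were nearly silent with eATP. LCE3D, a late cornified envelope protein of the skin barrier, was 8.02, 9.34, 11.3 and 7.47 FPKM in TGF6 and 0.126, 0.346, 0.140 and 0.0571 FPKM in ATP6. KRT17, a keratin of basal and wounded epithelium, was 1.27, 1.07, 1.35 and 1.37 FPKM in TGF6 and 0.0397, 0.0131, 0.0722 and 0.0001 FPKM in ATP6, where 0.0001 is the value that the table gives to any gene with no count. CHRNA9, a subunit of nicotinic acetylcholine receptors, was 1.53, 1.70, 1.49 and 1.51 FPKM in TGF6 and 0.0001, 0.0551, 0.0695 and 0.0240 FPKM in ATP6. In LCE3D the lowest TGF6 value was well above the highest ATP6 value, while KRT17 and CHRNA9, under 0.1 FPKM in every ATP6 library, were members through TGF6 alone and had to show such a gap. AC034223.2, a lincRNA of chromosome 5, had 27 to 71 counts per TGF6 library and none in the ATP6 libraries, which is at least 74.2-fold higher when 3 counts are allowed over the whole ATP6 group. It too was a member through TGF6 alone, as were R3HDML, the forkhead factor FOXS1, the tetraspanin TSPAN2 and the phosphatase DUSP26, with log2(FC) values of 5.64, 5.41, 4.40 and 4.36. ODAPH and YPEL2 had log2(FC) values of 5.66 and 4.79 (adjusted p = 4.6e-04 and 0.0019). All 6 of these were under 1 FPKM in every ATP6 library.

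For the largest falls, untreated cells had more transcript than TGF-β-treated ones and less than eATP-treated ones in the mean of all 12. By the same rule the 12 were EDN2, FGFBP1, AC021087, SPNS2, AL162258.1, PDK4, IL6R, PTPRH, PTX3, AREG, SERPINB3 and IGFBP1. EDN2 (ENSG00000127129, GRCh38 chr1:41478775-41484673), a vasoactive peptide of the endothelin family, was 0.0803, 0.0540, 0.0001 and 0.0995 FPKM in TGF6 and 4.47, 4.0, 5.17 and 3.91 FPKM in ATP6, with 1.62 ± 0.424 FPKM in untreated cells. TGF6 was thus near zero and ATP6 above the untreated mean (log2(FC) -6.09), and EDN2 was a member through ATP6 alone, so that it had to differ. FGFBP1 (ENSG00000137440, GRCh38 chr4:15935569-15938740), a carrier that frees fibroblast growth factors from the matrix, was 4.53, 4.72, 4.26 and 3.16 FPKM in TGF6 and 78.0, 70.2, 89.8 and 70.0 FPKM in ATP6, with an untreated mean of 22.1 ± 2.02 FPKM. Its log2(FC) was -4.15 ± 0.16 (adjusted p = 1.1e-06), and the 2 inducers stood on opposite sides of the untreated cells, at -2.35 with TGF-β (adjusted p = 3.2e-10) and 1.82 with eATP (adjusted p = 1.6e-07). Both of those fits use the same 4 untreated libraries.

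SPNS2, the exporter of sphingosine 1-phosphate, was 0.224, 0.179, 0.213 and 0.299 FPKM in TGF6 and 3.11, 2.81, 3.03 and 2.70 FPKM in ATP6. Untreated cells had 0.379 ± 0.0493 FPKM, so most of that gap lay on the eATP side. PDK4, the kinase that turns off pyruvate dehydrogenase, was 4.95, 3.62, 4.29 and 5.09 FPKM in TGF6 and 48.7, 49.5, 45.3 and 47.9 FPKM in ATP6, and here the untreated mean of 43.0 ± 4.20 FPKM was close to that with eATP. IGFBP1, a secreted binding protein of insulin-like growth factors, was 2.25, 1.86, 1.89 and 1.74 FPKM in TGF6 and 19.4, 17.8, 19.8 and 17.0 FPKM in ATP6. No value of one group reached the range of the other in SPNS2, PDK4 or IGFBP1, and their log2(FC) values were -3.60, -3.36 and -3.20 (adjusted p = 2.2e-06, 4.0e-07 and 6.9e-07). IL6R, the receptor chain for interleukin 6, was 0.606, 0.131, 0.145 and 0.177 FPKM in TGF6 and 3.02, 2.54, 2.71 and 3.07 FPKM in ATP6. The first TGF6 library was higher than the other 3 but below all of ATP6. Log2(FC) was -3.34 for the receptor phosphatase PTPRH, -3.33 for the pentraxin PTX3 and -3.20 for the protease inhibitor SERPINB3 (adjusted p = 3.6e-05, 6.9e-05 and 0.0018). AL162258.1, a noncoding locus of chromosome 1, was 0.424, 1.31, 0.641 and 0.276 FPKM in TGF6 and 8.49, 2.30, 11 and 7.60 FPKM in ATP6. AC021087, which GENCODE 29 does not hold, was 0.136, 0.471, 0.270 and 0.0001 FPKM in TGF6 and 1.02, 4.49, 5.25 and 0.605 FPKM in ATP6, and its call (adjusted p = 0.046) was lost when TGF6 replicate 1, 2 or 3 or ATP6 replicate 1, 2 or 3 was omitted (log2(FC) between -4.31 and -3.13, adjusted p between 0.054 and 0.11).

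**Figure D2:**
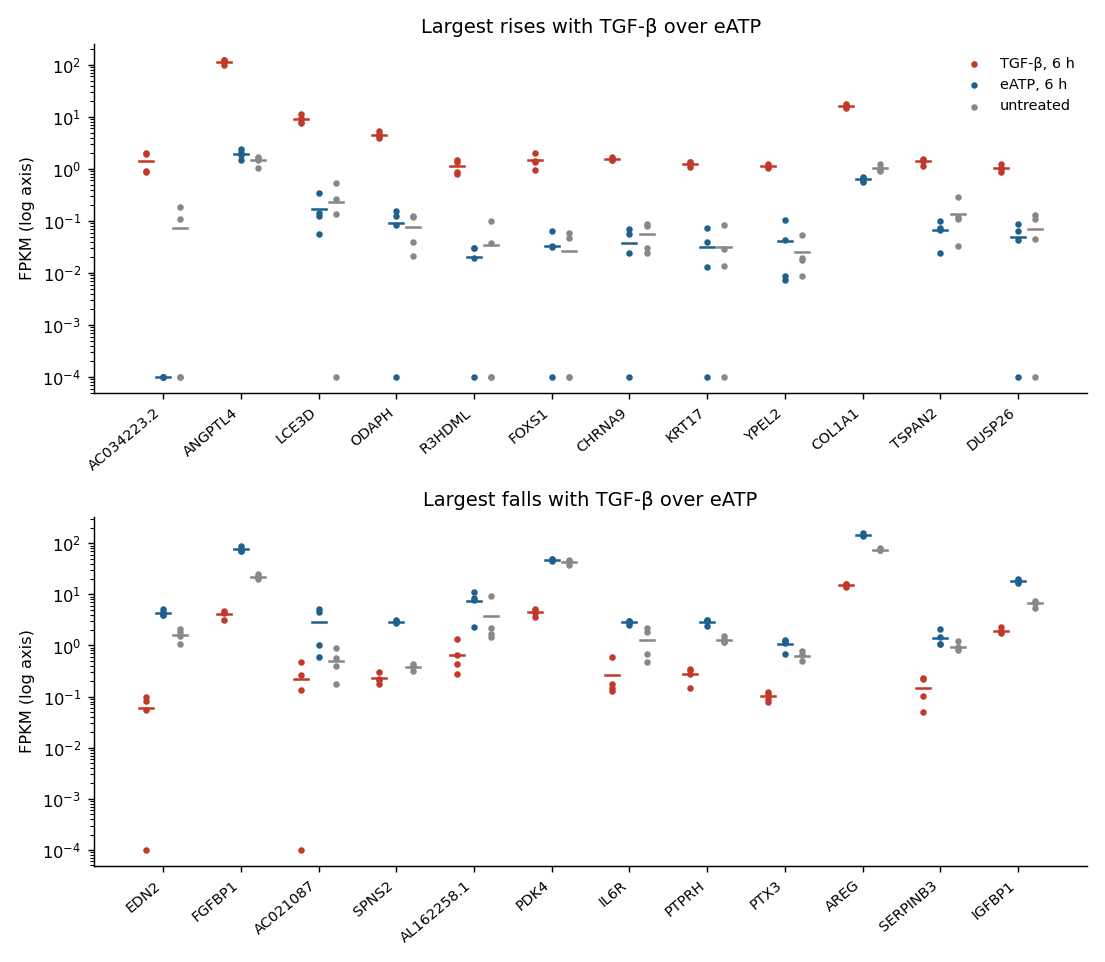
FPKM in each library (log axis) of the 12 genes with the largest rises and the 12 with the largest falls, with TGF-β at 6 h in red, eATP at 6 h in blue and untreated cells in gray; bars are group means, and points at 0.0001 have no count. In the upper panel eATP and untreated cells lie together below TGF-β for most genes, whereas in the lower panel FGFBP1, IGFBP1 and AREG show TGF-β below and eATP above the untreated cells without overlap.

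Some of the most abundant transcripts of the cell also differed. Among the genes called higher with the highest mean level were KRT81, PRDX1, IGFBP4, ACTB and HSP90AB1. Their log2(FC) values were modest: 0.51 for the hair keratin KRT81, 0.46 for the peroxidase PRDX1, 0.61 for the growth factor binding protein IGFBP4, 0.88 for beta-actin and 0.21 for the chaperone HSP90AB1. The HSP90AB1 call (adjusted p = 0.042) was lost when TGF6 replicate 1, 2 or 3 or ATP6 replicate 1, 2, 3 or 4 was omitted (log2(FC) between 0.17 and 0.23, adjusted p between 0.052 and 0.12). On the other side were AKR1B10, an aldo-keto reductase, at 1904 ± 34.4 FPKM in TGF6 and 2651 ± 57.9 FPKM in ATP6, the mitochondrial ribosomal RNA MT-RNR1, the adhesion molecule CEACAM6, the chemokine CXCL5, the quinone reductase NQO1 and the pentose phosphate enzyme PGD. The log2(FC) was -0.43 for AKR1B10, -0.56 for MT-RNR1, -0.77 for CEACAM6, -0.28 for NQO1 and -0.38 for PGD. The selection of polyadenylated RNA could bear on MT-RNR1, which was not tested. The 13 mitochondrially encoded protein genes had 0 higher and 0 lower by edgeR and by DESeq2, and 0 higher and 1 lower at an unadjusted p under 0.05. Their log2(FC) values ran between -0.56 and 0.18 with a median of -0.09, MT-CO2 at 0.07 (adjusted p = 0.78) and MT-CO3 at 0.07 (adjusted p = 0.78), and over the alternative settings 0 to 4 of them were called lower and 0 higher.

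Most regulators of the TGF-β pathway itself that were called were higher with TGF-β. Of 26 tested ligands, receptors and SMAD regulators, 13 were higher and 4 lower with TGF-β, and the list's median log2(FC) was 0.57 beside 0.01 over all genes. The counts of this list and of those below are to be read beside the shares over all genes, 10.4% called higher and 10.2% lower. No list was tested as a whole. In 10 of the lists described from here on, 1 or 2 members had passed the level rule through 1 group alone, and each of these was called. SMAD7, the inhibitory SMAD that TGF-β induces against itself, was 9.93, 10.0, 9.44 and 10.7 FPKM in TGF6 and 3.12, 2.45, 3.31 and 3.30 FPKM in ATP6. The eATP values lay just below the untreated mean of 3.34 ± 0.379 FPKM, and the log2(FC) between the inducers was 1.77 ± 0.11 (adjusted p = 1.1e-05). PMEPA1, a membrane protein that traps SMADs, was 192 ± 5.94 FPKM in TGF6 and 60.3 ± 2.58 FPKM in ATP6, and its relative LDLRAD4, a member through TGF6 alone, had a log2(FC) of 3.83. TGFBR3, the accessory receptor betaglycan, went the other way, at 0.476, 0.402, 0.413 and 0.446 FPKM in TGF6 and 1.94, 2.0, 1.10 and 2.13 FPKM in ATP6. The third ATP6 library was the lowest of its group but still above all of TGF6 (log2(FC) -1.99, adjusted p = 2.0e-04).

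Of 22 tested genes listed here as TGF-β targets, 21 were higher and 0 lower, with a median log2(FC) of 2.42. This list, like the others, was chosen with earlier results of these data known, so its count is a description. The exception was FN1, described with the mesenchymal genes. EdgeR at an unadjusted p under 0.05 and DESeq2 also found 0 lower. PDGFB, the B chain of platelet-derived growth factor, was 31.0, 32.0, 26.7 and 29.3 FPKM in TGF6 and 1.66, 1.86, 1.91 and 1.70 FPKM in ATP6. All 4 ATP6 values of PDGFB were close to the untreated mean of 1.79 ± 0.185 FPKM (log2(FC) between inducers 4.11 ± 0.09, adjusted p = 7.2e-08). KANK4, an adaptor of the cell cortex, was 0.813, 0.786, 0.762 and 1.04 FPKM in TGF6 and 0.0183, 0.0254, 0.00638 and 0.0001 FPKM in ATP6, and is a gene of low level (log2(FC) 6.02) that was a member through TGF6 alone. The cell cycle inhibitor CDKN1A, chosen after its values were seen, was 68.3 ± 1.89 FPKM in TGF6 and 29.1 ± 0.754 FPKM in ATP6, with an untreated mean of 30.0 ± 2.23 FPKM.

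The EMT regulators did not move as a block. Of 15 tested EMT transcription factors, 6 were higher and 3 lower. SNAI1, the zinc finger repressor of E-cadherin, was 4.54, 4.06, 3.73 and 4.49 FPKM in TGF6 and 0.449, 0.662, 0.785 and 0.817 FPKM in ATP6. Its log2(FC) was 2.67 ± 0.20 (adjusted p = 3.7e-05), with the untreated mean at 0.480 ± 0.124 FPKM. SNAI2 had 1.54, 1.45, 1.49 and 1.13 FPKM in TGF6 and 0.207, 0.330, 0.334 and 0.199 FPKM in ATP6, and none of its values overlapped either (log2(FC) 2.44, adjusted p = 1.3e-04). ETS2, an ETS family activator, was 83.3 ± 2.74 FPKM in TGF6 and 27.3 ± 0.663 FPKM in ATP6. TWIST1, a helix-loop-helix EMT factor, was lower with TGF-β, at 0.530, 0.681, 0.542 and 0.780 FPKM in TGF6 and 1.25, 1.21, 1.54 and 1.37 FPKM in ATP6 (log2(FC) -1.03, adjusted p = 0.0037). ZEB1 did not pass the test, at 2.70 ± 0.401 FPKM in TGF6 and 2.42 ± 0.199 FPKM in ATP6 (log2(FC) 0.21 ± 0.11, adjusted p = 0.24). RUNX1 was 2.70, 2.55, 1.10 and 2.83 FPKM in TGF6 and 1.15, 1.16, 1.10 and 1.24 FPKM in ATP6, where the third TGF6 library sat at the eATP level. Its call (adjusted p = 0.021) was lost when TGF6 replicate 1, 2 or 4 or ATP6 replicate 1 or 2 was omitted (log2(FC) between 0.93 and 1.02, adjusted p between 0.053 and 0.057).

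Mesenchymal structural genes were more often higher with TGF-β, 6 of 13 against 1 lower. VIM, the intermediate filament vimentin, was 295, 324, 295 and 275 FPKM in TGF6 and 154, 148, 188 and 159 FPKM in ATP6 (log2(FC) 0.93 ± 0.09, adjusted p = 2.0e-04). CDH2, N-cadherin, was 24.1, 22.6, 27.4 and 27.2 FPKM in TGF6 and 16.5, 16.4, 17.2 and 20.6 FPKM in ATP6 (log2(FC) 0.57, adjusted p = 0.0042). Both rose over eATP without overlap, but by less than 1 log2 unit. FN1, fibronectin, was 22.6 ± 4.43 FPKM in TGF6 and 17.5 ± 3.07 FPKM in ATP6 and did not pass (log2(FC) 0.42 ± 0.16, adjusted p = 0.10). The smooth muscle proteins stood further apart, with TAGLN at 8.28, 8.29, 8.18 and 6.79 FPKM in TGF6 and 1.5, 1.45, 1.4 and 1.39 FPKM in ATP6, and CNN1 at 0.899, 0.973, 0.886 and 0.896 FPKM in TGF6 and 0.0001, 0.111, 0.0001 and 0.0374 FPKM in ATP6. For TAGLN the eATP values were also below the untreated mean of 2.31 ± 0.327 FPKM. CD44, the hyaluronan receptor, was the member that was lower with TGF-β, at 16.4 ± 2.44 FPKM in TGF6 and 29.6 ± 5.01 FPKM in ATP6 (log2(FC) -0.80, adjusted p = 0.0052).

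On the epithelial side, 4 of 27 tested junction and epithelial identity genes were higher and 7 lower. CDH1, E-cadherin, was 6.12, 2.62, 2.14 and 7.64 FPKM in TGF6 and 7.63, 7.43, 2.91 and 5.60 FPKM in ATP6. Its libraries spread more than 2-fold within each group, and the groups overlapped without a call (log2(FC) -0.30 ± 0.44, adjusted p = 0.70). JUP, plakoglobin of adherens junctions and desmosomes, was higher with TGF-β at 67.5, 76.2, 77.3 and 84.4 FPKM in TGF6 and 27.5, 27.5, 32.7 and 29.3 FPKM in ATP6 (log2(FC) 1.43, adjusted p = 1.2e-05). The desmosomal PKP2 and the tight junction scaffold TJP3 were lower, with log2(FC) values of -1.14 and -1.28 (adjusted p = 2.4e-04 and 0.013). CLDN4, a tight junction claudin, was 5.95, 0.114, 6.16 and 5.64 FPKM in TGF6 and 0.303, 0.192, 0.363 and 0.296 FPKM in ATP6. The second TGF6 library was at the eATP level while the other 3 were close to each other, and the call (adjusted p = 0.017) was lost when ATP6 replicate 1, 2 or 4 was omitted (log2(FC) between 3.84 and 4.01, adjusted p between 0.051 and 0.056).

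Of 11 keratins tested, 6 were higher and 3 lower. Besides KRT17, KRT16 of activated epidermis was 1.11, 1.66, 1.34 and 1.18 FPKM in TGF6 and 0.324, 0.211, 0.294 and 0.330 FPKM in ATP6, and KRT80 was 96.7, 92.9, 87.9 and 99.6 FPKM in TGF6 and 31.2, 44.7, 30.4 and 47.8 FPKM in ATP6. KRT7, a keratin of simple epithelia, was higher with TGF-β at 460.1 ± 49.5 FPKM in TGF6 and 283 ± 26.2 FPKM in ATP6. KRT19 and KRT6A were lower, with log2(FC) values of -0.77 and -0.93 (adjusted p = 0.0021 and 0.0011). For KRT6A both inducers were above the untreated mean of 0.400 ± 0.0745 FPKM, with 0.724 ± 0.0720 FPKM in TGF6 and 1.44 ± 0.0924 FPKM in ATP6.

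Collagens were higher or not called. Of 24 collagens and collagen-modifying enzymes, 12 were higher and 0 lower with TGF-β by edgeR (median log2(FC) 0.53), with 1 lower at an unadjusted p under 0.05 and 1 by DESeq2. COL5A1, a fibril-forming collagen, was 18.2, 17.0, 17.4 and 21.5 FPKM in TGF6 and 4.48, 4.69, 4.86 and 4.98 FPKM in ATP6. COL4A1 of basement membranes was 35.3, 32.6, 31.2 and 39.1 FPKM in TGF6 and 7.65, 10.4, 9.64 and 11.4 FPKM in ATP6. In both, the lowest TGF6 value was far above the highest ATP6 value (log2(FC) 2.01 and 1.87, adjusted p = 1.3e-06 and 1.9e-05), and P4HA3, a prolyl hydroxylase of collagen, had a log2(FC) of 1.4. Among 9 fibroblast markers the summed level was 15.7 to 18.7 FPKM in TGF6 and 1.31 to 2.03 FPKM in ATP6. COL1A1 made up most of the TGF6 sum, at 14.7 to 17.8 FPKM in TGF6 and 0.566 to 0.700 FPKM in ATP6. It was the only one to reach 1 FPKM in any library, and COL1A2, DCN, PDGFRB and FAP were under 0.1 FPKM in all 8. Of the 3 markers tested, COL1A1 was higher and 2 were not called, the lowest log2(FC) being -0.76. LUM was 0.149 to 0.291 FPKM in TGF6 and 0.256 to 0.603 FPKM in ATP6.

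Laminins and other basement membrane genes were mostly not called, 2 higher and 2 lower of 14. These counts were near the shares over all genes, 10.4% higher and 10.2% lower. LAMB3, a beta chain of an epithelial laminin, was higher with a log2(FC) of 0.61 (adjusted p = 2.5e-04), whereas the alpha chain LAMA3 and NID2, a linker of basement membranes, were lower (-1.21 and -2.19 in log2(FC), adjusted p = 0.0010 and 2.0e-05). Integrins, the receptors for these proteins, had 7 higher and 3 lower of 17. ITGB6, whose dimer with the alpha V chain activates latent TGF-β, was 1.60, 2.0, 1.85 and 2.15 FPKM in TGF6 and 0.425, 0.425, 0.348 and 0.326 FPKM in ATP6. ITGB8, another beta chain that pairs with alpha V, was 0.0701, 0.103, 0.0215 and 0.113 FPKM in TGF6 and 0.507, 0.430, 0.454 and 0.476 FPKM in ATP6. These beta chains thus moved in opposite directions, by 2.37 and -2.54 (adjusted p = 1.1e-05 and 0.0027). The fibronectin receptor chain ITGA5 and the vitronectin receptor chain ITGB3 were higher, by 1.32 and 2.29.

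Proteases and their inhibitors had 14 higher and 6 lower of 32. TIMP3, an inhibitor of metalloproteinases, was 2.72, 2.82, 3.11 and 2.73 FPKM in TGF6 and 0.295, 0.192, 0.211 and 0.210 FPKM in ATP6. The gelatinase MMP9 was 0.694, 0.649, 0.573 and 0.900 FPKM in TGF6 and 0.0539, 0.0646, 0.0745 and 0.0357 FPKM in ATP6. The membrane protease ADAM19 was 21.3, 21.3, 20.9 and 26.0 FPKM in TGF6 and 1.14, 3.03, 2.70 and 2.78 FPKM in ATP6. TIMP3 and ADAM19 did not overlap, at log2(FC) values of 3.70 and 3.26 (adjusted p = 2.1e-06 and 8.9e-05), whereas MMP9 (3.60) was a member through TGF6 alone and had to differ. The gelatinase MMP2 and its inhibitor TIMP2, chosen after their values were seen, were higher together, at 2.86 ± 0.408 and 53.1 ± 6.14 FPKM in TGF6 and 0.469 ± 0.0645 and 18.8 ± 1.78 FPKM in ATP6. The 3 neighboring metalloproteinase genes of chromosome 11 differed less: MMP3 (stromelysin 1) had a log2(FC) of 1.73 (adjusted p = 8.1e-05), MMP10 (stromelysin 2) of 0.69 (adjusted p = 0.0035) and MMP1 (interstitial collagenase) of 0.48 ± 0.15 (adjusted p = 0.056). MMP1 was 2.25, 2.71, 2.29 and 2.67 FPKM in TGF6 and 2.06, 1.93, 1.39 and 2.0 FPKM in ATP6, so the groups did not overlap although the call was missed. Both inducers had it far above the untreated mean of 0.188 ± 0.0670 FPKM.

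Actin and contractile genes were higher with TGF-β in 20 of 38 and lower in 2, with a median log2(FC) of 0.47. ACTB was 1111, 821, 797 and 921 FPKM in TGF6 and 518, 574, 475 and 482 FPKM in ATP6, which puts every TGF6 library above every ATP6 library. TPM1, a tropomyosin of stress fibers, was 103, 99.7, 76.3 and 82.0 FPKM in TGF6 and 31.3, 27.5, 27.6 and 33.6 FPKM in ATP6 (log2(FC) 1.64, adjusted p = 2.6e-05). PDLIM7, a LIM protein of the actin cytoskeleton, had a log2(FC) of 1.48 (adjusted p = 1.1e-05). Its relative PDLIM5 was 50.3, 47.1, 45.0 and 11.1 FPKM in TGF6 and 8.64, 10.6, 13.5 and 18.8 FPKM in ATP6, with the fourth TGF6 library inside the eATP range. That call (adjusted p = 0.035) was lost when TGF6 replicate 1, 2 or 3 or ATP6 replicate 1, 2 or 3 was omitted (log2(FC) between 1.48 and 1.66, adjusted p between 0.066 and 0.094).

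**Figure D3:**
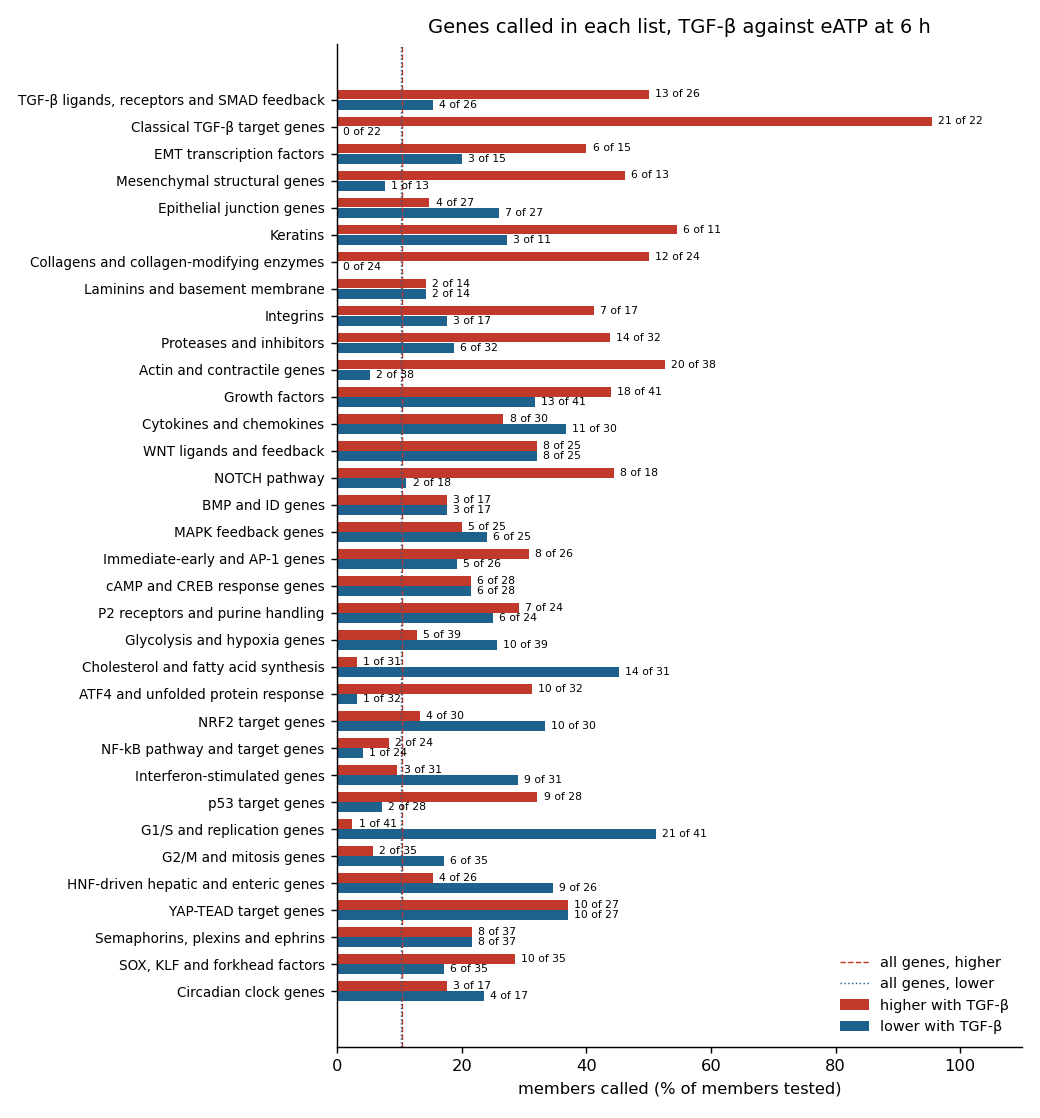
Share of each gene list called higher (red) or lower (blue) with TGF-β than with eATP at 6 h, in percent of its members tested, with the counts beside the bars; the dashed and dotted lines mark the shares over all genes, 10.4% and 10.2%. Lists of other cell types and of RNA quality are not drawn. Classical TGF-β targets (21 of 22), keratins (6 of 11) and actin genes (20 of 38) have the longest red bars, and G1/S genes (21 of 41) and cholesterol and fatty acid synthesis genes (14 of 31) the longest blue ones.

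Growth factors differed in both directions, 18 higher and 13 lower of 41. Of the ligands of the EGF receptor, all but AREG were picked for description after their values were seen. AREG, amphiregulin, was 16.2, 16.3, 14.6 and 14.1 FPKM in TGF6 and 147, 137, 161 and 142 FPKM in ATP6. The untreated mean of 75.2 ± 2.83 FPKM lay between, with a log2(FC) against it of -2.24 for TGF-β (adjusted p = 3.4e-13) and 0.99 for eATP (adjusted p = 2.0e-07). EREG, epiregulin, the neighbor of AREG, was 7.65, 7.25, 6.44 and 6.59 FPKM in TGF6 and 59.9, 58.7, 49.5 and 59.7 FPKM in ATP6, again on both sides of the untreated mean of 34.2 ± 3.92 FPKM. Between the inducers the log2(FC) was -3.21 ± 0.09 for AREG (adjusted p = 2.2e-07) and -2.97 ± 0.09 for EREG (adjusted p = 3.8e-07). TGFA and BTC were lower with TGF-β, at -0.75 and -0.95 (adjusted p = 2.0e-04 and 0.0083). HBEGF, the heparin-binding ligand, was higher instead, at 6.88, 6.41, 6.88 and 6.68 FPKM in TGF6 and 3.22, 3.98, 3.21 and 3.37 FPKM in ATP6 (log2(FC) 1.01, adjusted p = 1.1e-04). Of other factors, NOG, an antagonist of BMPs, was 2.23, 2.61, 2.32 and 1.80 FPKM in TGF6 and 0.316, 0.213, 0.221 and 0.0974 FPKM in ATP6, and the lymphatic growth factor VEGFC, also picked afterwards, was 3.86 ± 0.387 FPKM in TGF6 and 9.61 ± 0.547 FPKM in ATP6.

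Cytokines and chemokines had 8 higher and 11 lower of 30. IL11 (ENSG00000095752, GRCh38 chr19:55364389-55370463), a cytokine of the interleukin 6 family that TGF-β induces in fibrosis, was 142, 151, 141 and 126 FPKM in TGF6 and 15.7, 15.1, 15.2 and 12.9 FPKM in ATP6. The log2(FC) was 3.30 ± 0.09 (adjusted p = 2.5e-07), and untreated cells had 10.1 ± 1.11 FPKM. IL1A was 5.76, 5.33, 4.80 and 5.48 FPKM in TGF6 and 0.981, 0.608, 0.540 and 0.756 FPKM in ATP6, and IL6 was 2.90, 3.07, 3.54 and 2.36 FPKM in TGF6 and 1.13, 1.07, 0.908 and 1.15 FPKM in ATP6. Both were higher without overlap, at log2(FC) values of 2.94 and 1.52 (adjusted p = 1.6e-05 and 2.5e-04). Among CXC chemokines that attract neutrophils, CXCL5 was 223, 214, 197 and 190.2 FPKM in TGF6 and 845, 889, 803 and 892 FPKM in ATP6 (log2(FC) -2.0 ± 0.07, adjusted p = 8.0e-07). CXCL1, CXCL2 and CXCL3, picked after their values were seen, had log2(FC) values of -1.03, -1.48 and -1.30 (adjusted p = 5.4e-05, 1.2e-05 and 0.0067). CXCL8, picked in the same way, was 142 ± 13.8 FPKM in TGF6 and 171 ± 6.03 FPKM in ATP6 and did not pass (adjusted p = 0.096). CCL20, which attracts CCR6-bearing lymphocytes, was 1.77, 2.0, 2.16 and 1.58 FPKM in TGF6 and 7.74, 8.37, 7.44 and 8.41 FPKM in ATP6. The monocyte attractant CCL2, also picked afterwards, was higher with TGF-β at 272, 269, 258 and 253 FPKM in TGF6 and 145, 145, 139 and 130.2 FPKM in ATP6 (log2(FC) 0.96, adjusted p = 9.8e-06).

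WNT, NOTCH and BMP genes differed less uniformly. WNT ligands and feedback genes had 8 higher and 8 lower of 25. WNT7A was 1.17, 1.03, 1.09 and 1.12 FPKM in TGF6 and 0.102, 0.175, 0.0820 and 0.0996 FPKM in ATP6, and WNT5B was higher by 2.47 (adjusted p = 3.8e-04). The WNT-inactivating enzyme NOTUM, with a log2(FC) of 4.08, was a member through TGF6 alone. RNF43, the ligase that removes WNT receptors, was lower, at 1.28, 1.22, 0.963 and 1.41 FPKM in TGF6 and 7.06, 6.98, 6.13 and 6.58 FPKM in ATP6, with eATP near the untreated mean of 7.93 ± 1.73 FPKM. NOTCH pathway genes had 8 higher and 2 lower of 18, led by the effectors HEY1 (2.02) and HES2 (1.65), the glycosyltransferase LFNG (1.5) and the ligand JAG1 (1.16). JAG1 had the highest level of these, 24.2, 24.3, 21.3 and 25.0 FPKM in TGF6 and 11.3, 11.2, 10.2 and 11.2 FPKM in ATP6. BMP and ID genes had 3 higher and 3 lower of 17. The receptor BMPR2 was 11.9, 11.6, 10.9 and 13.2 FPKM in TGF6 and 3.21, 3.40, 2.66 and 3.44 FPKM in ATP6. ID2 and ID4, inhibitors of helix-loop-helix factors, were lower, at -1.64 and -1.51 (adjusted p = 1.9e-05 and 6.7e-05), and ID1, picked after its values were seen, had a log2(FC) of -0.09 ± 0.12 (adjusted p = 0.65). The ligands BMP2 and BMP6 were both higher with TGF-β, by 1.10 and 0.55 (adjusted p = 9.6e-05 and 0.0027).

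Feedback and early response genes of kinase signaling differed in both directions. Of 25 MAP kinase feedback genes 5 were higher and 6 lower, and of 26 immediate-early and AP-1 genes 8 were higher and 5 lower. JUNB, an AP-1 subunit and SMAD target, was 151, 159, 171 and 148 FPKM in TGF6 and 26.8, 27.7, 34.6 and 22.4 FPKM in ATP6. FOS, its partner, was 2.31, 2.03, 1.73 and 2.42 FPKM in TGF6 and 10.5, 11, 11.2 and 8.46 FPKM in ATP6, and both inducers left it below the untreated mean of 21.2 ± 2.23 FPKM. These AP-1 subunits differed in opposite directions, by 2.55 and -2.22 (adjusted p = 5.2e-06 and 9.7e-06). The kinase inhibitor SPRY1 and the phosphatase DUSP4 were lower with TGF-β (-2.45 and -1.37), as was DUSP5, picked after its values were seen (-1.24). IER3 and CSRNP1, immediate-early genes, were higher (1.55 and 1.49). DUSP3 was 7.28, 7.60, 26.7 and 29.1 FPKM in TGF6 and 6.00, 5.24, 6.41 and 5.76 FPKM in ATP6, with TGF6 libraries 3 and 4 several times above libraries 1 and 2. That call (adjusted p = 0.037) was lost when TGF6 replicate 3 or 4 or ATP6 replicate 1, 2, 3 or 4 was omitted (log2(FC) between 1.30 and 1.69, adjusted p between 0.066 and 0.095).

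Of 28 cAMP and CREB response genes, 6 were higher and 6 lower. The orphan nuclear receptors NR4A1 and NR4A2 were lower with TGF-β, NR4A1 at 0.668, 0.957, 0.834 and 0.746 FPKM in TGF6 and 2.54, 2.14, 2.51 and 2.83 FPKM in ATP6 and NR4A2 with a log2(FC) of -1.30. The phosphodiesterase PDE10A was lower, at -1.39 (adjusted p = 7.0e-05). Of 24 P2 receptors and genes of purine handling, 7 were higher and 6 lower. P2RY2, the receptor for ATP and UTP, was 10.6, 10.2, 10.2 and 11 FPKM in TGF6 and 4.20, 3.60, 3.56 and 4.0 FPKM in ATP6. P2RY6, the receptor for UDP, was 4.23, 4.17, 4.26 and 4.25 FPKM in TGF6 and 1.30, 1.13, 1.2 and 1.12 FPKM in ATP6. These nucleotide receptors were higher with TGF-β than with eATP (log2(FC) 1.5 and 1.88, adjusted p = 5.3e-06 and 2.7e-06). ADORA2B, the low-affinity adenosine receptor, was 1.94, 1.83, 2.23 and 1.57 FPKM in TGF6 and 7.49, 7.07, 8.69 and 7.64 FPKM in ATP6, and ADA, the enzyme that deaminates adenosine, was 17.3, 12.5, 14.5 and 13.1 FPKM in TGF6 and 6.14, 5.52, 5.93 and 5.46 FPKM in ATP6. This adenosine receptor was lower and the adenosine-degrading enzyme higher with TGF-β (-1.97 and 1.37 in log2(FC)).

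Sterol synthesis genes that were called were nearly all lower with TGF-β. Of 31 cholesterol and fatty acid synthesis genes 1 was higher and 14 were lower with TGF-β, with a median log2(FC) of -0.23. HMGCS1, the synthase that feeds the sterol pathway, was 13.9, 11.8, 12.4 and 15.7 FPKM in TGF6 and 37.6, 30.3, 24.1 and 38.6 FPKM in ATP6. The untreated mean of 20.4 ± 0.773 FPKM lay between, and the log2(FC) was -1.23 ± 0.16 (adjusted p = 6.7e-04). The fatty acid elongase ELOVL6 was lower, at -1.23 (adjusted p = 2.9e-05). Glycolysis and hypoxia genes had 5 higher and 10 lower of 39. Those with the largest falls were PDK4, the low-level hexokinase HK2 (-3.12, a member through ATP6 alone), the oxygen sensor EGLN3 (-1.33) and the peptide ADM (-1.32), while the list's median was 0.02, close to that of all genes.

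NRF2 targets had 4 higher and 10 lower of 30. HMOX1, heme oxygenase 1, was 115, 112, 126 and 109 FPKM in TGF6 and 30.6, 31.8, 35.7 and 30.3 FPKM in ATP6, with an untreated mean of 54.0 ± 3.90 FPKM between them (log2(FC) 1.90, adjusted p = 2.0e-06). The efflux pump ABCC2, thioredoxin reductase TXNRD1 and OSGIN1 were lower, with log2(FC) values of -1.44, -1.41 and -1.16 (adjusted p = 2.6e-05, 0.0096 and 9.1e-05). TXNRD1 spread widely among libraries, at 118, 192, 80.5 and 223 FPKM in TGF6 and 336, 471, 393 and 482 FPKM in ATP6, without overlap. Genes of the ATF4 and unfolded protein response had 10 higher and 1 lower of 32. The glutathione-degrading enzyme CHAC1 was 2.81, 3.50, 3.09 and 2.78 FPKM in TGF6 and 0.711, 0.785, 0.979 and 0.783 FPKM in ATP6, and SESN2, HERPUD1 and TRIB3 were higher by 1.33, 1.21 and 1.10 (adjusted p = 1.4e-04, 5.2e-05 and 0.010).

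Genes of the entry into S phase were lower with TGF-β or not called, with 1 exception. Of 41 G1/S and replication genes, 21 were lower and 1 higher with TGF-β, with a median log2(FC) of -0.42. E2F2, a transcription factor of S phase entry, was 0.778, 0.681, 0.724 and 0.708 FPKM in TGF6 and 2.61, 2.51, 2.12 and 2.79 FPKM in ATP6, with an untreated mean of 2.74 ± 0.178 FPKM. The replication factor MCM10 was 6.50, 6.09, 5.05 and 7.28 FPKM in TGF6 and 14.9, 15.9, 12.4 and 15 FPKM in ATP6. ORC1, the largest subunit of the origin recognition complex, and E2F8 were lower, at -1.12 and -1.09 (adjusted p = 2.0e-04 and 0.0023). Of 35 G2/M and mitosis genes, 6 were lower and 2 higher, beside 10.2% lower and 10.4% higher over all genes. The calls were small, with -0.59 for ECT2, -0.47 for ANLN, -0.46 for KIF20A and -0.49 for CENPE in log2(FC). The CENPE call (adjusted p = 0.046) was lost when TGF6 replicate 1, 2 or 3 or ATP6 replicate 1, 2 or 4 was omitted (log2(FC) between -0.50 and -0.38, adjusted p between 0.087 and 0.11). The p53 targets had 9 higher and 2 lower of 28, led by GADD45B (2.24), DDB2 (1.49) and TP53I3 (1.36); GADD45B is also a TGF-β target.

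Interferon-stimulated genes had 3 higher and 9 lower of 31. The share that was higher was near the 10.4% over all genes, and the share that was lower was above the 10.2%. OAS1 was 6.24, 6.18, 4.13 and 6.13 FPKM in TGF6 and 13.7, 14.3, 12.4 and 13.9 FPKM in ATP6. The IFIT family members IFIT2 and IFIT3 were lower, at -1.27 and -1.19 (adjusted p = 0.0015 and 1.9e-04). IFIT1 had a log2(FC) of -1.19 (adjusted p = 0.023), and its call was lost when TGF6 replicate 1 or 4 or ATP6 replicate 1 or 3 was omitted (log2(FC) between -1.18 and -1.05, adjusted p between 0.052 and 0.063). NF-kB pathway and target genes had 2 higher and 1 lower of 24, below the shares over all genes. The one that was lower, BIRC3, an inhibitor of apoptosis, was 6.75, 6.42, 8.81 and 10.6 FPKM in TGF6 and 56, 53.4, 50.4 and 53.1 FPKM in ATP6. Untreated cells had 18.6 ± 3.52 FPKM, between the inducers, and the log2(FC) was -2.66 ± 0.16 (adjusted p = 9.8e-06). NFKB1 and CD83 were higher by 0.97 and 0.69 (adjusted p = 3.0e-05 and 0.0047).

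A549 cells express liver and gut genes driven by HNF factors, and of 26 such genes 4 were higher and 9 lower with TGF-β. The fibrinogen chain FGA was 9.89, 9.59, 8.49 and 9.82 FPKM in TGF6 and 27.4, 29.9, 27.0 and 26.9 FPKM in ATP6, and the urea cycle enzyme CPS1 and the membrane protein TM4SF20 were lower, at -1.21 and -1.43. YAP-TEAD target genes were split, 10 higher and 10 lower of 27. CCN2 (ENSG00000118523, GRCh38 chr6:131948176-131951373), connective tissue growth factor, whose promoter held 3 TEAD motifs, was 129.8, 134, 122 and 126 FPKM in TGF6 and 10.1, 11.6, 11.2 and 10.1 FPKM in ATP6. The eATP values were below the untreated mean of 16.2 ± 0.772 FPKM, and the log2(FC) was 3.62 ± 0.07 (adjusted p = 7.2e-08). The coagulation starter F3 and the RhoGAP DLC1 were higher by 1.72 and 1.86, whereas the RhoGAP ARHGAP29 was lower, at -1.51 (adjusted p = 5.8e-06, 2.0e-05 and 1.7e-05).

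Among 35 SOX, KLF and forkhead factors, 10 were higher and 6 lower. SOX2, a stem cell factor and lung lineage oncogene, was 1.07, 1.01, 0.733 and 0.763 FPKM in TGF6 and 5.28, 6.53, 5.30 and 5.63 FPKM in ATP6. SOX21 was 0.0952, 0.135, 0.0391 and 0.190 FPKM in TGF6 and 0.965, 1.01, 1.09 and 1.15 FPKM in ATP6. Both SOX genes were lower with TGF-β (-2.61 and -3.12 in log2(FC), adjusted p = 1.2e-05 and 5.6e-04), and for SOX2 eATP too was below the untreated mean of 9.40 ± 0.661 FPKM. The forkhead factor FOXP1 was higher by 2.37 (adjusted p = 2.2e-06). SOX8, which both inducers had far above the untreated mean of 0.166 ± 0.0444 FPKM, was 1.25 ± 0.278 FPKM in TGF6 and 1.27 ± 0.0578 FPKM in ATP6 (log2(FC) 0.02 ± 0.17, adjusted p = 0.94). BLOC1S6, a subunit of the complex that builds lysosome-related organelles, was 4.87, 5.87, 6.50 and 3.59 FPKM in TGF6 and 2.77, 7.18, 5.91 and 3.43 FPKM in ATP6, spread widely within both groups, and it did not pass (log2(FC) 0.17 ± 0.32, adjusted p = 0.77). Semaphorins, plexins and ephrins had 8 higher and 8 lower of 37, among them SEMA7A at 6.74 ± 0.238 FPKM in TGF6 and 0.801 ± 0.0740 FPKM in ATP6, with EFNA2 higher (3.22). PLXNA4 (2.54) was a member through TGF6 alone and the receptor EPHB3 (-2.42) through ATP6 alone. Circadian genes had 3 higher and 4 lower of 17, with BHLHE40 and BMAL1 higher (1.36 and 1.25) and the PAR factor TEF lower (-1.2), while its relative HLF (-3.11) was a member through ATP6 alone. Of 25 ribosomal protein genes only RPL7A was called (log2(FC) 0.40, adjusted p = 0.0072), while the list's median was 0.20. Over the alternative settings, 0 to 11 of these ribosomal genes were called higher.

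The libraries of the 2 h time point share no sample with those at 6 h, and the same contrast there, TGF2 against ATP2, called 646 genes higher and 474 lower (3.68% and 2.7% of the genes tested, 6.38% in either direction). Of the 1820 genes higher at 6 h, 460 (25.3%) were also called higher at 2 h and 30 lower. Of the 1792 genes lower at 6 h, 266 (14.8%) were also called lower at 2 h and 19 higher. Seen from 2 h, 71.2% of the genes called higher and 56.1% of those called lower were called the same way at 6 h. The first TGF2 library weighed on the 2 h contrast: without it, 1001 genes were higher and 765 lower, and the shared calls were 607 higher and 391 lower. Genes called higher at 6 h had a median log2(FC) of 0.74 at 6 h and 0.32 at 2 h, and genes called lower -0.61 and -0.24; the genes were picked on their 6 h values, which by itself makes the 6 h medians larger.

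**Figure D4:**
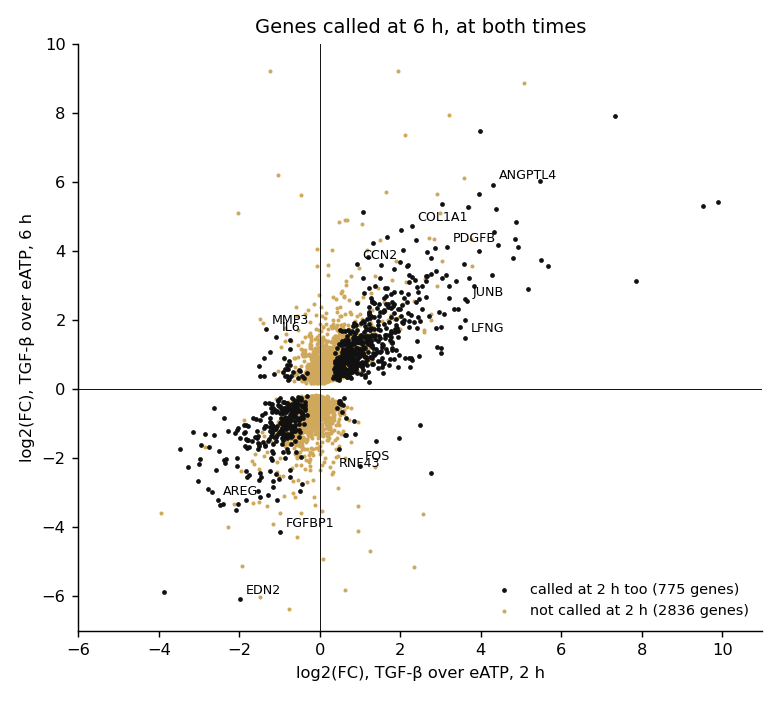
Log2(FC) of TGF-β over eATP at 2 h and at 6 h for the genes called at 6 h (AC034223.2, without a count in ATP6, is left out, and values of other genes with no count in a group depend on the fit), with genes also called at 2 h in black and the others in tan. Most black points lie in the quadrants of equal sign, and MMP3, IL6 and FOS lie in those of opposite sign.

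The difference between the times was tested directly, as the 6 h contrast minus the 2 h contrast over all 16 treated libraries, which called 3.0% of genes positive and 3.26% negative, 6.26% in either direction. COL1A1 and CCN2 pulled further apart with time, by 2.41 and 2.69 on the log2 scale (adjusted p = 2.1e-07 and 2.1e-07). CCN2 had 128 ± 5.10 FPKM at 6 h and 114 ± 19.5 FPKM at 2 h with TGF-β, and 10.8 ± 0.788 FPKM at 6 h and 60.9 ± 2.16 FPKM at 2 h with eATP, so it was the eATP level that differed most between the times. FGFBP1 pulled apart in the other direction, by -3.18 (adjusted p = 2.8e-07). FGFBP1 had 4.17 ± 0.695 FPKM at 6 h and 14.8 ± 1.49 FPKM at 2 h with TGF-β, and 77.0 ± 9.32 FPKM at 6 h and 29.5 ± 2.16 FPKM at 2 h with eATP. Others already differed at 2 h: SNAI1 had a log2(FC) of 2.67 at 6 h and 2.64 at 2 h, SMAD7 of 1.77 at 6 h and 1.92 at 2 h, and EREG of -2.97 at 6 h and -2.69 at 2 h, and the difference between times did not pass (adjusted p = 0.99, 0.64 and 0.51). LFNG and JUNB were closer together at 6 h than at 2 h, by -2.14 and -1.13 (adjusted p = 7.0e-05 and 0.0021).

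A small set of genes was led by eATP at 2 h and by TGF-β at 6 h. There were 30 genes called lower at 2 h and higher at 6 h, and 19 called the opposite way (46 and 33 without the first TGF2 library). They were 1.65% of the genes higher at 6 h and 1.06% of those lower. Over all genes tested, 2.7% were called lower and 3.68% higher at 2 h, so both shares were below those over all genes. The reversed genes were picked on both contrasts, so their change of sign is a description. MMP3 was 2.49 ± 0.324 FPKM at 6 h and 0.275 ± 0.0974 FPKM at 2 h with TGF-β, and 0.776 ± 0.0957 FPKM at 6 h and 0.706 ± 0.0892 FPKM at 2 h with eATP. IL6 was 2.97 ± 0.490 FPKM at 6 h and 1.39 ± 0.438 FPKM at 2 h with TGF-β, and 1.06 ± 0.110 FPKM at 6 h and 2.99 ± 0.378 FPKM at 2 h with eATP. In IL6 the level under eATP at 2 h was thus like that under TGF-β at 6 h. IL1B and CCN1, which were picked from this set after their values were seen, and the named genes MMP10, BMP6 and CD83 shared the pattern, with log2(FC) values at 6 h of 0.90, 1.42, 0.69, 0.55 and 0.69 and at 2 h of -1.4, -0.73, -0.75, -0.53 and -0.82. STC1, a secreted calcium regulator, was also led by eATP at 2 h (log2(FC) -1.94, adjusted p = 1.3e-04), at 12.6 ± 2.11 FPKM at 6 h and 13.4 ± 3.0 FPKM at 2 h with TGF-β, and 11.8 ± 1.16 FPKM at 6 h and 51.1 ± 2.66 FPKM at 2 h with eATP. At 6 h the difference did not pass (log2(FC) 0.14 ± 0.12, adjusted p = 0.48). FOS, ID4 and EPHB3 were in the set of the opposite kind, with log2(FC) values of -2.22, -1.51 and -2.42 at 6 h and 0.99, 1.39 and 2.76 at 2 h. EPHB3 was a member through ATP6 alone, so it had to be lower with TGF-β at 6 h.

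**Figure D5:**
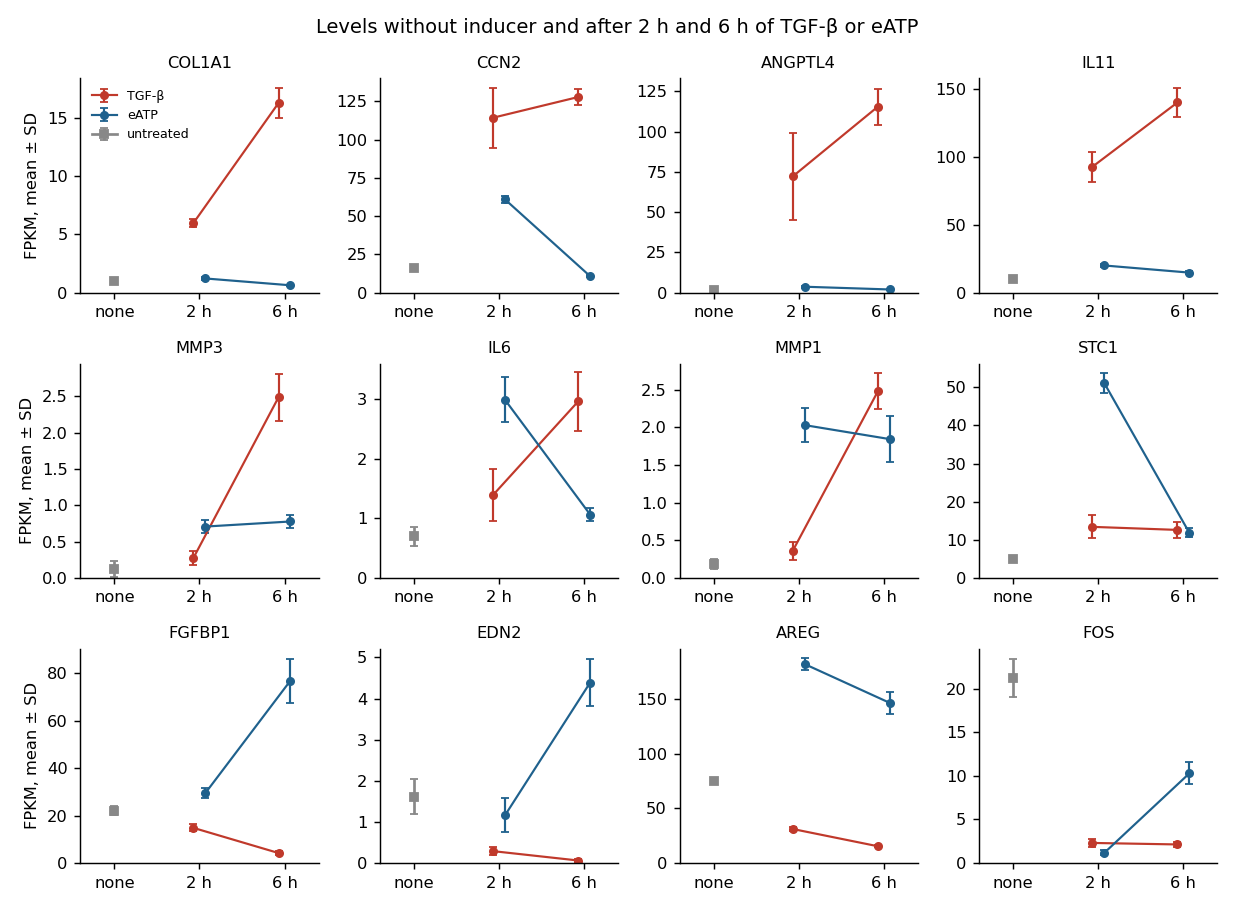
Mean FPKM with SD (n = 4 libraries) of 12 genes in untreated cells (gray square, no collection time stated) and after 2 h and 6 h with TGF-β (red) or eATP (blue). The lines of IL6 and MMP3 cross between the times, those of COL1A1 and FGFBP1 spread, and those of STC1 meet.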

How the data were processed

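RNAseq was done by the study on polyadenylated RNA of A549 cells with a stranded library kit. The authors deposited 1 table with, per library, whole-number counts per gene and FPKM values; per the labels, reads were aligned with HISAT2, assembled and counted with StringTie and tested with edgeR. Tool versions, build and annotation were not given in the sources used here. Each deposited FPKM column lists 0.0001 for every gene without a count. The labels number 4 libraries in each of the 5 groups, whereas the study states 3 replicates for each treatment. Columns were mapped to samples by name. Gene names in the table were not reliable (2829 of the 17544 members carried another name than the symbol of their Ensembl identifier), so genes were named by identifier, and positions are those of GENCODE 29 on GRCh38.

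The 17544 members were fitted with edgeR 4.0.16 (TMM scaling, glmQLFit and glmQLFTest, no covariate, 8 libraries, 6 residual degrees of freedom, Benjamini-Hochberg adjustment over all members). The 2 h contrast and the difference between times were fitted on the same genes with their own libraries. The levels against untreated cells came from 1 model of all 5 groups and 20 libraries on those genes. Their p-values are therefore not on a par with those of the fit of 8 libraries. Figures use matplotlib 3.10.9. On counts simulated for the 6 h contrast with 17544 genes, 27 of 50 genes set 1 log2 unit up and 26 of 50 set 1 unit down were called, against 2 of 50 and 1 of 50 at 0.5 units, and 0 of 17344 unchanged genes. The changed genes were drawn from those with higher counts. They were a far smaller share of all genes than the 20.6% called in the data, which makes the adjusted threshold stricter. These rates therefore do not carry over to the data. Depth ran between 56187614 and 75008012 counts in these 8 libraries, and PCR duplicates could not be told from separate molecules, so bounds cover counting error only. DESeq2 1.42.0 and limma 3.58.1 (on log2 of FPKM with an offset of 0.1 or 1), other scalings, filters, a replicate term and leaving out each library were alternatives.

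Genes were named by rule: the 12 largest rises and 12 largest falls among called genes whose higher group averaged at least 1 FPKM without overlap, up to 4 called members per list, 20 EMT genes, and the 6 most abundant called genes in each direction. Some genes that fall under this rule are not reported here. The members and the 40 lists were chosen with earlier results of these data known.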

Additional observations from a re-analysis of the deposited data

Results flagged for a closer look

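Among the 188 named genes, the highest or lowest library of a group of 4 stood apart from the other 3 by Dixon's criterion in 24 of 376 groups, where chance gives about 1 in 20. In TGF6 the library that stood below the others was found for CLDN4 at 0.114 FPKM in replicate 2 (the other 3 at 5.64 to 6.16), ECT2 at 26.6 FPKM in replicate 2 (the other 3 at 38.5 to 40.1), KRT6A at 0.616 FPKM in replicate 1 (the other 3 at 0.755 to 0.763), LFNG at 2.85 FPKM in replicate 1 (the other 3 at 3.59 to 3.69), NOTUM at 0.22 FPKM in replicate 4 (the other 3 at 0.34 to 0.36), OAS1 at 4.13 FPKM in replicate 3 (the other 3 at 6.13 to 6.24), PDLIM5 at 11.1 FPKM in replicate 4 (the other 3 at 45 to 50.3), RUNX1 at 1.1 FPKM in replicate 3 (the other 3 at 2.55 to 2.83) and TAGLN at 6.79 FPKM in replicate 4 (the other 3 at 8.18 to 8.29). In TGF6 the library that stood above the others was found for ADAM19 at 26 FPKM in replicate 4 (the other 3 at 20.9 to 21.3), CNN1 at 0.973 FPKM in replicate 2 (the other 3 at 0.886 to 0.899), IER3 at 393 FPKM in replicate 3 (the other 3 at 322 to 330), IL6R at 0.606 FPKM in replicate 1 (the other 3 at 0.131 to 0.177), ITGB3 at 1.84 FPKM in replicate 4 (the other 3 at 1.09 to 1.19), TP53I3 at 56.2 FPKM in replicate 4 (the other 3 at 38.3 to 40.7) and VEGFC at 4.43 FPKM in replicate 1 (the other 3 at 3.62 to 3.71). In ATP6 the library that stood below the others was found for ADAM19 at 1.14 FPKM in replicate 1 (the other 3 at 2.7 to 3.03), CPS1 at 15.5 FPKM in replicate 3 (the other 3 at 18.7 to 18.8), EREG at 49.5 FPKM in replicate 3 (the other 3 at 58.7 to 59.9), JAG1 at 10.2 FPKM in replicate 3 (the other 3 at 11.2 to 11.3) and ORC1 at 12.3 FPKM in replicate 3 (the other 3 at 15 to 15.2). In ATP6 the library that stood above the others was found for CD83 at 1.79 FPKM in replicate 2 (the other 3 at 1.45 to 1.47), CXCL1 at 198 FPKM in replicate 3 (the other 3 at 174 to 175) and FGA at 29.9 FPKM in replicate 2 (the other 3 at 26.9 to 27.4).

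The contrast of TGF-β over eATP differed between 6 h and 2 h, by edgeR on the 16 treated libraries, in 22 of 41 genes compared (the largest rises and falls and the EMT genes). The largest rises and falls were picked on their 6 h values, which by itself favors a difference between the times. Their p-values are therefore a description. Over all genes tested, the difference between times was called positive in 3.0% and negative in 3.26%, 6.26% in either direction. Among the 22, TSPAN2 and EDN2 reached 0.1 FPKM at 6 h in 1 group alone and so had to differ there. Their values are given without a p-value. The 6 h minus the 2 h log2(FC) was positive at 1.06 for BMP6 (adjusted p = 0.00012), 1.23 for BMP2 (adjusted p = 6.7e-05), 1.42 for MMP10 (adjusted p = 0.00026), 1.58 for ANGPTL4 (adjusted p = 0.0071), 2.06 for STC1 (adjusted p = 1.6e-05), 2.41 for COL1A1 (adjusted p = 2.1e-07), 2.59 for IL6 (adjusted p = 4.1e-05), 2.70 for TSPAN2, 2.93 for MMP1 (adjusted p = 3.1e-05), 3.05 for MMP3 (adjusted p = 4.2e-05), 3.72 for YPEL2 (adjusted p = 0.032) and 4.05 for LCE3D (adjusted p = 0.0019). It was negative at -6.20 for AC021087 (adjusted p = 0.036), -4.33 for AL162258.1 (adjusted p = 0.029), -4.13 for EDN2, -3.25 for IL6R (adjusted p = 0.029), -3.18 for FGFBP1 (adjusted p = 2.8e-07), -3.14 for SPNS2 (adjusted p = 0.00016), -2.16 for SERPINB3 (adjusted p = 0.02), -1.37 for IGFBP1 (adjusted p = 0.00025), -1.33 for PTPRH (adjusted p = 0.01) and -0.69 for AREG (adjusted p = 0.0015). ANGPTL4 and COL1A1 were higher at both times, whereas IL6, MMP3, MMP10 and BMP6 were lower at 2 h and higher at 6 h.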

How the results depend on the processing

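The 6 h counts of 1820 higher and 1792 lower stayed within 1.5 times under other scalings, filters, a joint model, a robust fit, DESeq2, limma and thinning, although the near-even split became 1559 higher and 2162 lower with library totals only and 1599 and 2150 with limma on log2(FPKM + 0.1), and fell to 1140 and 1010 at an adjusted p under 0.01. Leaving out 1 library gave 1448 to 1893 higher and 1339 to 1890 lower. At 2 h, leaving out 1 library gave 412 to 1001 higher and 298 to 765 lower, the highest without TGF2 replicate 1, and 1 model of all 5 groups gave 995 and 874. For the difference between times, leaving out 1 library gave 434 to 800 positive and 406 to 980 negative, the highest without TGF2 replicate 1.

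Replicate numbers are shared by the groups, but the deviations of same-numbered TGF6 and ATP6 libraries correlated at only 0.02, -0.03, 0.10 and 0.05 (3 of 4 TGF6 libraries best with their own number) and those of TGF2 and ATP2 at 0.0013, 0.048, 0.0022 and 0.057, and nothing in the labels ties the numbers to a shared origin, so they were not treated as pairs. With a replicate block, 2029 genes were higher and 1992 lower at 6 h, 359 and 268 at 2 h, and the difference between times was positive in 421 and negative in 442.

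Of the 177 named genes called, 160 kept direction and call under all 21 settings, 17 lost the call under at least 1, and none changed sign. ANLN, HES2 and RPL7A lost it in the joint model of all groups. Of the 11 not called, CXCL8, FN1 and MMP1 passed under some settings. Thinning and the further left-out libraries of the 2 h and between-time fits were chosen after seeing the data. The lower depth of TGF6, the missing collection time of untreated cells and the unknown origin of replicates limit these results. Simulated differences of 1 log2 unit were called in 27 of 50 genes set up. That simulation changed a far smaller share of genes than was called in the data, so its rate does not carry over.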
